A study of Mus musculus with 7 samples.

Results

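The 38 genes described here act in the cell division cycle, and their transcripts are commonly read as a measure of how many cells in a tissue are dividing. They comprise 16 genes of the G1/S transition and DNA replication (S phase genes: Mcm2, Mcm3, Mcm4, Mcm5, Mcm6, Mcm7, Pcna, Rrm1, Rrm2, Tyms, Ccne1, Ccne2, Cdc6, Cdt1, Gmnn and E2f1) and 22 genes of G2 and mitosis (G2/M genes: Mki67, Top2a, Ccnb1, Ccnb2, Cdk1, Ccna2, Birc5, Aurka, Aurkb, Bub1, Bub1b, Ube2c, Cenpe, Cenpf, Tpx2, Plk1, Kif11, Kif23, Cdc20, Ttk, Nusap1 and Prc1). They were taken by symbol from a table of 56941 rows, where each symbol stood on 1 row. Measured values did not enter the rule, and all 38 were among the 17582 tested genes, which averaged 1 TPM (transcripts per 1000000) or more over the 7 samples.

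RNA was sequenced from fresh mouse cortex at postnatal day 7 in 3 samples labelled P213L and 4 wild-type (WT) samples. P213L is a protein variant of Hnrnph2, an X-linked gene for an RNA-binding protein of the hnRNP H family that acts in splicing, and the series links it to intellectual disability and oligodendrocyte differentiation. The labels used here give no strain, sex or zygosity. Nor do they state that each sample is a separate animal, and the p-values therefore measure only the spread among these samples.

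Cells that enter division switch on their genes in waves. Around the G1/S transition, E2F factors freed from the pocket proteins drive genes that license and copy DNA. Later, complexes built on the MuvB core with B-Myb and FoxM1, together with NF-Y at CCAAT boxes, drive the mitotic genes through an element called the CHR (cell cycle genes homology region), which the DREAM complex uses to silence the same genes in resting cells. In the mouse cortex of the first postnatal week the neurons have left the cycle, and glial precursors and young astrocytes are the main dividing cells.

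This split in regulation could be read in the start-site regions of the genes. RefSeq promoter windows (GRCm38.p6 build, 250 bases before to 50 bases after the annotated start) were found for 32 of the 38 genes, 13 of S phase and 19 of G2/M. The genes with no window in the table were Mcm4, Ccne2, Gmnn, Ccna2, Aurkb and Tpx2. Each window was searched on both strands for the CHR (TTTGAA or TTCGAA), the CCAAT box (CCAAT) and 4 spellings of an E2F site (TTTGGCGC, TTTCCCGC, TTTCGCGC and TTTGCCGC). The following windows carry the contrast: Mcm3 and Mcm6 are replication genes with E2F sites, and Cdc20, Plk1 and Mki67 are mitotic genes with a CHR. Sequences are written 5′ to 3′ on the strand of the gene, with matches to any of the 3 motifs in capitals.
Mcm3, chr1:20820263-20820562, minus strand: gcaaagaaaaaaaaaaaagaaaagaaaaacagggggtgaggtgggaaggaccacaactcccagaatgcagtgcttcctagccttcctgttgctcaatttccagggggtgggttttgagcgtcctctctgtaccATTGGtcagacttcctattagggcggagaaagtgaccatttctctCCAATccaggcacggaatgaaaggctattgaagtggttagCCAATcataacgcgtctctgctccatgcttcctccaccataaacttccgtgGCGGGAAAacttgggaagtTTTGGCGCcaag
Mcm6, chr1:128359656-128359955, minus strand: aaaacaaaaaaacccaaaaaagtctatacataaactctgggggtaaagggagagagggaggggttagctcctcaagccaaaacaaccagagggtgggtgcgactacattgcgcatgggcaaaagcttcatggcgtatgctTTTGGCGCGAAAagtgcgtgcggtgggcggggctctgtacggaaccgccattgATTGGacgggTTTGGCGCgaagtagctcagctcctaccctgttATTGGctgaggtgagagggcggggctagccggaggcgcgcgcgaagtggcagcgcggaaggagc
Cdc20, chr4:118437294-118437593, minus strand: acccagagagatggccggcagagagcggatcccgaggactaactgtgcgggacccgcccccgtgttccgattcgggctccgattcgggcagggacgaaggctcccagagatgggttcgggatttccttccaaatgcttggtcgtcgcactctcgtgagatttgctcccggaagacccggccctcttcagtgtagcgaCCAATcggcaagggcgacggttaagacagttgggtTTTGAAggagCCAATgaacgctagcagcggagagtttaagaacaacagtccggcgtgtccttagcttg
Plk1, chr7:122159185-122159484, plus strand: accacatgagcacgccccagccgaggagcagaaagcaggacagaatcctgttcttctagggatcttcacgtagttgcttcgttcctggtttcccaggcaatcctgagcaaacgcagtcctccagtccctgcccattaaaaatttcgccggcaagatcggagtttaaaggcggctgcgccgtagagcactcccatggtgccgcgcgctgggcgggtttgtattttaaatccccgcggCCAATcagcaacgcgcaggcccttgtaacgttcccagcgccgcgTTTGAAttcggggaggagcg
Mki67, chr7:135716330-135716629, minus strand: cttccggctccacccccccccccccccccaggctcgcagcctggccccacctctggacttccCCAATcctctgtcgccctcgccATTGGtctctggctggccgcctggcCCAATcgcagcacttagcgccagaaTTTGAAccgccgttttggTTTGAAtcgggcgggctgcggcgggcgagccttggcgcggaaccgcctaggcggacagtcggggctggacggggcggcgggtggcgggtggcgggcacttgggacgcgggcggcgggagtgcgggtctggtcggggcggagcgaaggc

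Positions count the annotated start as 0. In Mcm3 the E2F matches began at 19 and 38, and in Mcm6 at -110, -106 and -47, where the first 2 overlap. In Cdc20 a CHR at -18 lay between CCAAT boxes at -53 and -8. In Plk1 a CHR at 30 followed a CCAAT box at -14. Mki67 held its CHR matches farther upstream, at -116 and -98, behind CCAAT boxes at -188, -166 and -141.

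Across the set, an E2F match stood in 6 of 13 S phase windows (46.2%), in 1 of 19 G2/M windows (5.26%, Cdk1) and in 2.32% of all 27025 windows in the table. The CHR stood in 2 of 13 S phase windows (15.4%, Mcm2 and Mcm7), in 15 of 19 G2/M windows (78.9%) and in 19.4% of all windows. With TTTGAA alone these shares were 7.69%, 73.7% and 18.1%. CCAAT boxes stood in 61.5% of S phase windows, 89.5% of G2/M windows and 37.9% of all windows, and all 15 G2/M windows with a CHR also held a CCAAT box. Within 50 bases of the start, a range chosen after the positions were seen, a CHR stood in no S phase window, in 14 G2/M windows (73.7%) and in 5.29% of all windows. Matches overlapped each other in Mcm5, Mcm6, Mcm7 and Ube2c. The windows follow the RefSeq start, and those of E2f1, Cdc6 and Mcm7 lay wholly inside the gene in another annotation (GENCODE vM21). For these genes the region before the outermost start was not searched, and Cdc6 and Mcm7 were among the S phase genes with an E2F match. A match is a run of letters and was not tested as a binding site.

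**Figure D1:**
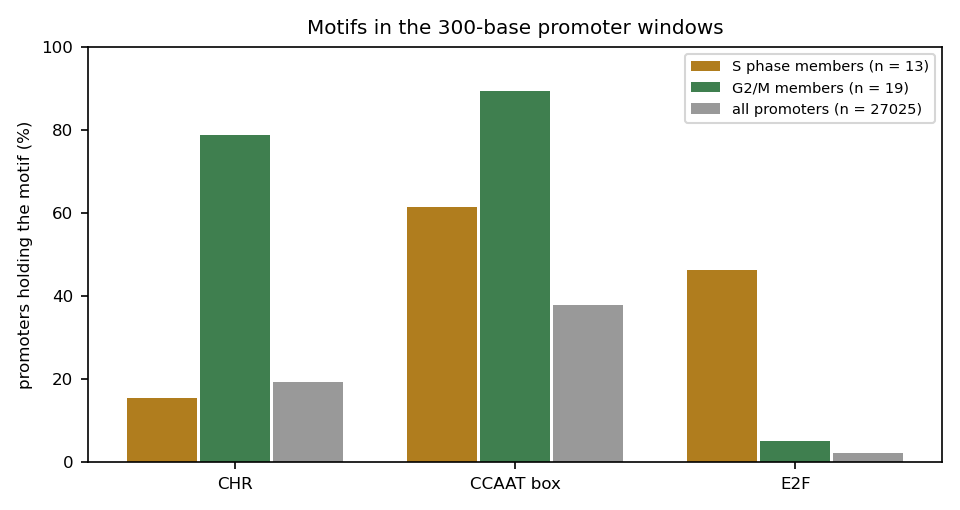
Share of promoter windows (%) that hold each motif at least once, for S phase genes (n = 13), G2/M genes (n = 19) and all windows of the table (n = 27025). E2F matches stand mostly in the S phase genes (46.2% against 5.26% in G2/M genes) and CHR matches in the G2/M genes (78.9% against 15.4% in S phase genes).

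A few facts of the libraries touch the results. Estimated depth was 71.2 to 79.4 M counted units in P213L (M, 1000000) and 57.3 to 72.5 M in WT. WT replicate 3 stood apart, with a correlation of 0.943 to 0.949 with the other 6 libraries across tested genes, against 0.981 to 0.992 among those 6. WT replicate 2 held 1220 TPM of Ttr, the main product of choroid plexus, against at most 1.36 TPM in the other 6. Hnrnph2 averaged 82.0 ± 5.39 TPM in P213L and 87.0 ± 5.66 TPM in WT (SD, n = 3 and 4), with overlapping libraries, and a point variant need not alter its level. The cortical excitatory neuron gene Neurod2 held at least 102 TPM in every library. Of 5 genes listed for the cerebellar granule lineage, Atoh1, Gabra6, Barhl1 and Cbln3 reached no more than 1.25 TPM, while Cbln1 held 75.6 to 77.7 TPM in P213L and 70.7 to 78 TPM in WT.

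The cell cycle genes did not separate P213L from WT cortex. None of the 38 passed the limma test (adjusted p under 0.05) in either direction, against 0.0% of all tested genes, and none reached an unadjusted p under 0.05, against 3.74% of all tested genes (657, of which 415 were higher and 242 lower in P213L). In no member were all P213L libraries above all WT libraries or below them, while 5.94% of all tested genes were separated with P213L higher and 2.75% with P213L lower. The smallest limma p among the members was 0.109, for Mcm3, and no member had an adjusted p below 0.827. The lowest exact permutation p was 0.0857, also for Mcm3, where the smallest that 3 against 4 samples allow is 0.0286 (two-sided). A limma fit with sample weights, in which P213L replicate 3 and WT replicate 4 carried most of the weight, was the exception: it called Mcm2 (log2 fold change 0.23, adjusted p = 0.0471) and Plk1 (0.45, adjusted p = 0.0171), 2 of 38 members, beside 22.6% of all tested genes. In bulk tissue, fewer dividing cells and less RNA per dividing cell cannot be told apart.

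The fold changes were small, and the 95% intervals had a median half-width of 0.39. They are given as log2 of P213L over WT on log2(TPM + 0.5), a scale that understates the change of low genes. They ran from -0.35 for Gmnn to 0.33 for Mcm2, with a median of 0.09, beside 0.07 over all tested genes. Without WT replicate 3 the median of the members was 0.05 and 22 were positive, while the median over all tested genes was -0.000995. Of the 38, 26 were positive (68.4%, against 63.4% of all tested genes), while median-of-ratios scaling left 20 positive and quantile normalization 17. The 95% intervals of all 38 lay within -0.96 and 0.84, so that a change of 1 log2 unit lay outside each of them. In 33 of 38 members the difference of the group means was smaller than the SD of the WT libraries. As a percentage of the mean, that SD had a median of 18.5% over the members, and 13.5% without WT replicate 3. The same count was not taken over all tested genes.

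**Figure D2:**
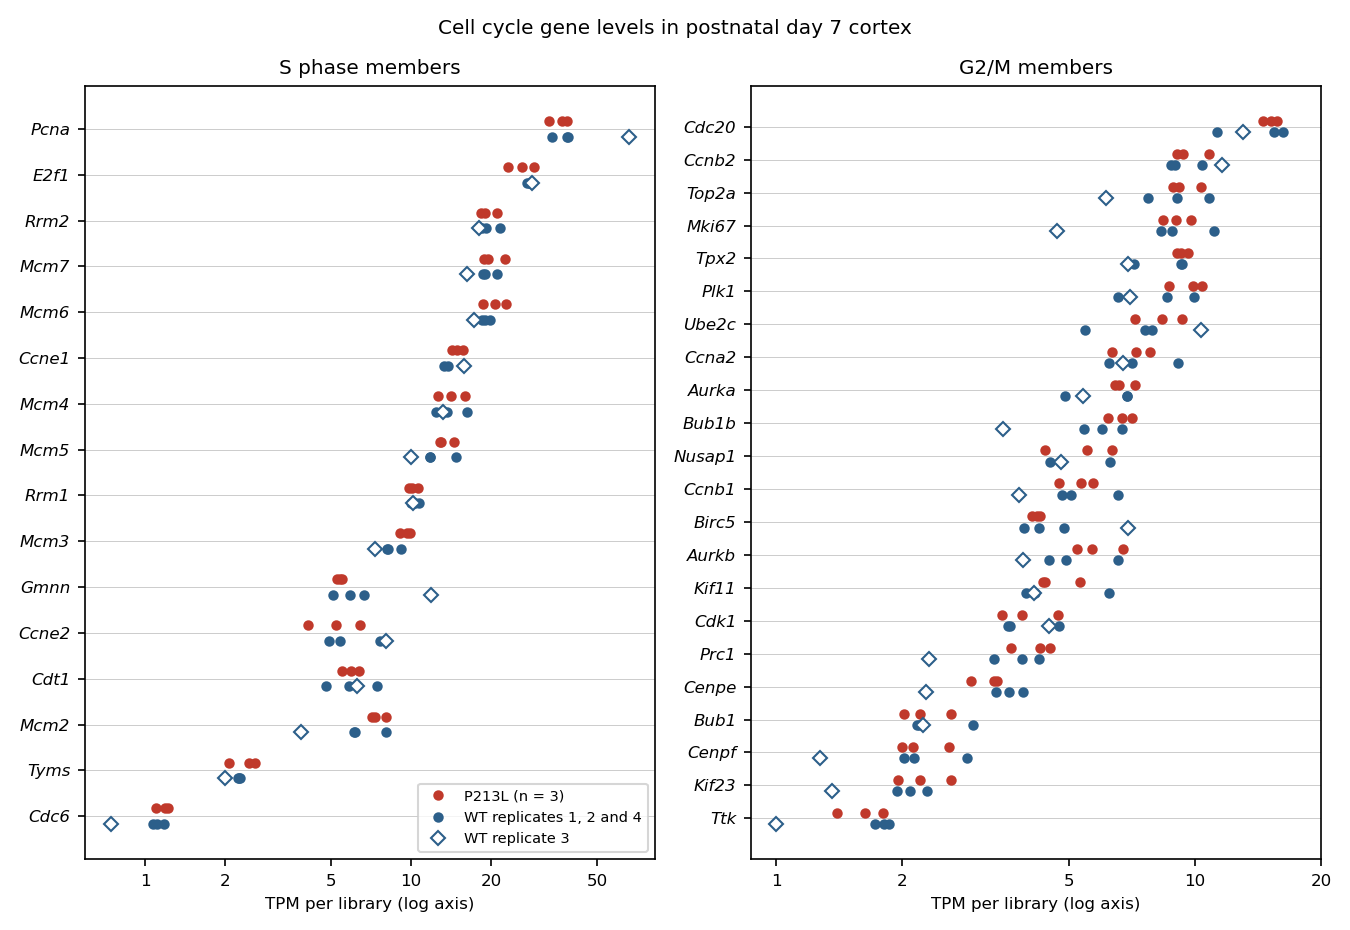
TPM of each cell cycle gene in each library on a log axis, with P213L libraries (red, n = 3) above WT libraries (blue, n = 4) for each gene and WT replicate 3 as an open diamond. In all 38 genes the libraries of the groups overlap, and WT replicate 3 is the lowest of all 7 libraries in 19 genes and the highest in 7.

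Origin licensing loads the replicative helicase onto DNA before S phase, through Cdc6 and Cdt1, and geminin (Gmnn) blocks it once S phase has begun. Gmnn (chromosome 13, 24751845 to 24761923, minus strand) stood at 5.27, 5.51 and 5.41 TPM in the P213L libraries, against 6.65, 5.09, 11.9 and 5.87 TPM in WT. The WT mean was carried by replicate 3, and the P213L libraries lay inside the WT range. Its log2 fold change of -0.35 ± 0.26 (SE) was the most negative of all members, and it was -0.10 without WT replicate 3. Cdc6 was the least abundant member, with 1.18, 1.22 and 1.10 TPM in P213L, against 1.11, 1.17, 0.741 and 1.07 TPM in WT. Only WT replicate 3 stood apart there, and the fold change of 0.14 ± 0.18 was 0.04 without it. Cdt1 averaged 5.93 ± 0.434 TPM in P213L and 6.08 ± 1.11 TPM in WT (SD, n = 3 and 4).

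The Mcm2 to Mcm7 proteins form the ring of the replicative helicase. All 6 genes had a positive fold change (median 0.15, and 0.09 without WT replicate 3), except that Mcm4 was at -0.05 with median-of-ratios scaling and at -0.07 with quantile normalization, and none passed the test. Mcm4 was also negative without P213L replicate 2 (-0.05), without WT replicate 4 or with the replicate number as a block (-0.015 each), and without WT replicates 2 and 3 together (-0.0042). Mcm3 (chromosome 1, 20802968 to 20820312, minus strand), whose E2F matches are printed above, stood at 9.93, 9.66 and 9.09 TPM in P213L, against 9.14, 8.12, 7.33 and 8.16 TPM in WT. It came nearest to separating the groups, with WT replicate 1 alone reaching into the P213L range. Its fold change was 0.21 ± 0.12, with a 95% interval of -0.06 to 0.49. Mcm2 (chromosome 6, 88883474 to 88898780, minus strand) stood at 8.02, 7.15 and 7.32 TPM in P213L, against 8.07, 6.14, 3.85 and 6.09 TPM in WT. The highest library was WT replicate 1 and the lowest WT replicate 3, and the fold change of 0.33 ± 0.22 was 0.15 without replicate 3. Mcm6 stood at 22.7, 20.6 and 18.7 TPM in P213L, against 19.8, 18.9, 17.3 and 18.4 TPM in WT. In contrast to most members its spread was wider in P213L, and its lowest P213L library lay among the WT libraries. Mcm5 averaged 13.4 ± 0.931 TPM in P213L and 12.1 ± 1.95 TPM in WT, and its fold change of 0.15 was 0.07 without WT replicate 3. Mcm7 averaged 20.3 ± 2.06 TPM in P213L and 18.7 ± 1.99 TPM in WT, and its fold change of 0.12 was 0.05 without that replicate. Mcm4, at 14.2 ± 1.70 TPM in P213L and 13.9 ± 1.65 TPM in WT (SD, n = 3 and 4 throughout), had the smallest fold change of the ring.

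E2f1 is the transcription factor that opens the S phase programme, and the E-type cyclins Ccne1 and Ccne2 activate Cdk2 at the G1/S transition. E2f1 stood at 28.9, 23.1 and 26.1 TPM in P213L, against 27.9, 27.8, 28.4 and 27.3 TPM in WT. The WT libraries lay close together, at a coefficient of variation (CV, the SD as a percentage of the mean) of 1.64%, and the P213L libraries spread to both sides of them at 11%. Its fold change was -0.10 ± 0.11. Ccne2 stood at 4.09, 6.43 and 5.23 TPM in P213L, against 4.89, 7.61, 8.05 and 5.38 TPM in WT. It varied widely in both groups, with CVs of 22.3% and 24.4%, and its fold change of -0.27 ± 0.22 was within that spread and was -0.17 without WT replicate 3. Ccne1 averaged 14.9 ± 0.679 TPM in P213L and 14.6 ± 1.27 TPM in WT.

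Pcna, the sliding clamp of the DNA polymerases, was the most abundant member. It stood at 37.0, 38.4 and 33.0 TPM in P213L, against 38.8, 38.4, 66.2 and 34 TPM in WT. Apart from WT replicate 3 the libraries of the groups covered nearly the same range, and the fold change of -0.24 ± 0.22 was -0.04 without that replicate. Rrm1 and Rrm2 are the subunits of ribonucleotide reductase, which makes deoxynucleotides. Rrm1 averaged 10.2 ± 0.387 TPM in P213L and 10.3 ± 0.301 TPM in WT, and Rrm2 averaged 19.5 ± 1.43 TPM in P213L and 19.2 ± 1.55 TPM in WT. Both differed little between groups, and the fold change of Rrm1 was -0.02, with an interval of -0.25 to 0.22. Tyms, the thymidylate synthase, averaged 2.37 ± 0.270 TPM in P213L and 2.18 ± 0.124 TPM in WT. Rows named as pseudogenes of Pcna reached at most 1.27 TPM.

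The mitotic cyclins and their kinase Cdk1, which drive entry into mitosis, had fold changes between -0.03 and 0.07. All 4 were negative with median-of-ratios scaling (median -0.10) and quantile normalization (median -0.12). Without WT replicate 3, 2 were positive and 2 negative (median -0.02). Without WT replicates 2 and 3 together, all 4 were positive (median 0.11). Ccnb1 stood at 5.70, 5.33 and 4.73 TPM in P213L, against 5.05, 6.55, 3.80 and 4.81 TPM in WT. The WT libraries held both the highest and the lowest value. Ccna2 averaged 7.12 ± 0.732 TPM in P213L and 7.28 ± 1.26 TPM in WT, and Cdk1 averaged 4.0 ± 0.634 TPM in P213L and 4.10 ± 0.590 TPM in WT. Ccnb2 averaged 9.71 ± 0.919 TPM in P213L and 9.90 ± 1.33 TPM in WT, and it is uncertain because a row named as its pseudogene, Ccnb2-ps, held 5.90 to 7.38 TPM.

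Mki67 encodes Ki-67, which coats mitotic chromosomes and is the standard stain for cycling cells, and Top2a encodes the topoisomerase that untangles replicated DNA. Mki67 (chromosome 7, 135689784 to 135716361, minus strand) stood at 9.0, 9.75 and 8.37 TPM in P213L, against 8.28, 11.1, 4.67 and 8.82 TPM in WT. The P213L libraries lay within the range of the WT libraries. Its fold change was 0.19 ± 0.26, with an interval of -0.41 to 0.78, and it was -0.05 without WT replicate 3. Top2a stood at 9.16, 10.3 and 8.84 TPM in P213L, against 9.03, 10.8, 6.13 and 7.73 TPM in WT. Its pattern followed that of Mki67, with WT replicate 2 highest and WT replicate 3 lowest in both genes. The fold change of Top2a was 0.18 ± 0.19, and 0.05 without WT replicate 3.

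Bub1, Bub1b and Ttk belong to the spindle checkpoint, which holds mitosis until chromosomes are attached, and Cenpe and Cenpf act at the kinetochore. Bub1b stood at 6.68, 7.07 and 6.2 TPM in P213L, against 5.98, 6.68, 3.48 and 5.43 TPM in WT. The P213L libraries and WT replicate 2 overlapped, and the fold change was 0.31 ± 0.21, with an interval of -0.17 to 0.79, and 0.13 without WT replicate 3. Ttk stood at 1.40, 1.80 and 1.63 TPM in P213L, against 1.72, 1.86, 1.00 and 1.81 TPM in WT. WT replicate 3 lay below all P213L libraries there, and the other WT libraries lay in the upper part of the P213L range or above it. Bub1 averaged 2.28 ± 0.309 TPM in P213L and 2.39 ± 0.378 TPM in WT. Cenpe averaged 3.20 ± 0.244 TPM in P213L and 3.28 ± 0.700 TPM in WT. Cenpf averaged 2.24 ± 0.313 TPM in P213L and 2.07 ± 0.647 TPM in WT. The 5 genes of this role had a median fold change of 0.03, which was -0.08 with 1 of 5 positive when WT replicate 3 was left out, -0.09 after quantile normalization and -0.03 after median-of-ratios scaling.

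Plk1, Aurka and Aurkb are the kinases that set up the spindle and complete division, and Birc5 (survivin) is the partner of Aurkb in the chromosomal passenger complex. Plk1 (chromosome 7, 122159439 to 122169873, plus strand) stood at 10.4, 8.64 and 9.90 TPM in P213L, against 9.91, 8.55, 6.97 and 6.53 TPM in WT. WT replicates 2, 3 and 4 lay below all P213L libraries and WT replicate 1 within their range. Its fold change of 0.27 ± 0.17 did not pass the test (limma adjusted p = 0.827, exact permutation p = 0.143). It was the 1 member at an unadjusted p under 0.05 when WT replicate 1 was left out, with 0.37, a limma p of 0.045 and an adjusted p of 0.554, in a setting where 8.95% of all tested genes (1571) reached that level. Aurkb stood at 5.68, 6.74 and 5.23 TPM in P213L, against 6.54, 4.91, 3.88 and 4.47 TPM in WT. As with Plk1, WT replicate 1 was the highest WT library and lay inside the P213L range. The fold change of Aurkb was 0.24, and 0.15 without WT replicate 3. Aurka averaged 6.73 ± 0.409 TPM in P213L and 6.01 ± 1.02 TPM in WT. Birc5 differed from its partner in sign, with 4.19, 4.08 and 4.27 TPM in P213L, against 4.23, 4.85, 6.92 and 3.9 TPM in WT. The fold change of Birc5 was -0.20 ± 0.19, and -0.04 without WT replicate 3, the library farthest from the rest.

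The motors and bundling proteins of the spindle and midbody, Kif11, Tpx2, Nusap1, Prc1 and Kif23, all had positive fold changes (median 0.19, and 0.08 without WT replicate 3), except that Kif11 was at -0.04 with median-of-ratios scaling and at -0.07 with quantile normalization, where Nusap1 was at -0.02. Kif11 was also negative without P213L replicate 2 (-0.05), without WT replicate 1 (-0.03) or 3 (-0.0057), and without WT replicate 4 or with the replicate number as a block (-0.0041 each), and Nusap1 was at -0.03 without P213L replicate 2. Tpx2, an activator of Aurka on the spindle, stood at 9.27, 9.59 and 9.06 TPM in P213L, against 9.27, 9.32, 6.91 and 7.16 TPM in WT. WT replicates 1 and 2 matched the P213L libraries, and WT replicates 3 and 4 lay below them. Prc1, which bundles the midzone of the spindle, stood at 4.27, 4.51 and 3.64 TPM in P213L, against 3.86, 4.23, 2.31 and 3.31 TPM in WT. Its fold change was 0.26 ± 0.20, and it was 0.11 without WT replicate 3. Kif11, a motor that pushes the spindle poles apart, stood at 4.34, 5.32 and 4.39 TPM in P213L, against 3.95, 6.24, 4.13 and 4.15 TPM in WT. The peak in each group fell in its replicate 2. Kif23 averaged 2.25 ± 0.336 TPM in P213L and 1.92 ± 0.4 TPM in WT, and Nusap1 averaged 5.41 ± 0.969 TPM in P213L and 5.08 ± 0.803 TPM in WT.

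Cdc20 activates the anaphase-promoting complex and Ube2c is the ubiquitin-conjugating enzyme that works with it. Cdc20, the most abundant G2/M gene, stood at 15.7, 15.2 and 14.5 TPM in P213L, against 16.2, 15.4, 13.0 and 11.3 TPM in WT. The P213L libraries lay close together inside the WT range. Its fold change was 0.12 ± 0.14. Ube2c averaged 8.27 ± 1.07 TPM in P213L and 7.80 ± 1.96 TPM in WT, with a fold change of 0.10 ± 0.21.

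**Figure D3:**
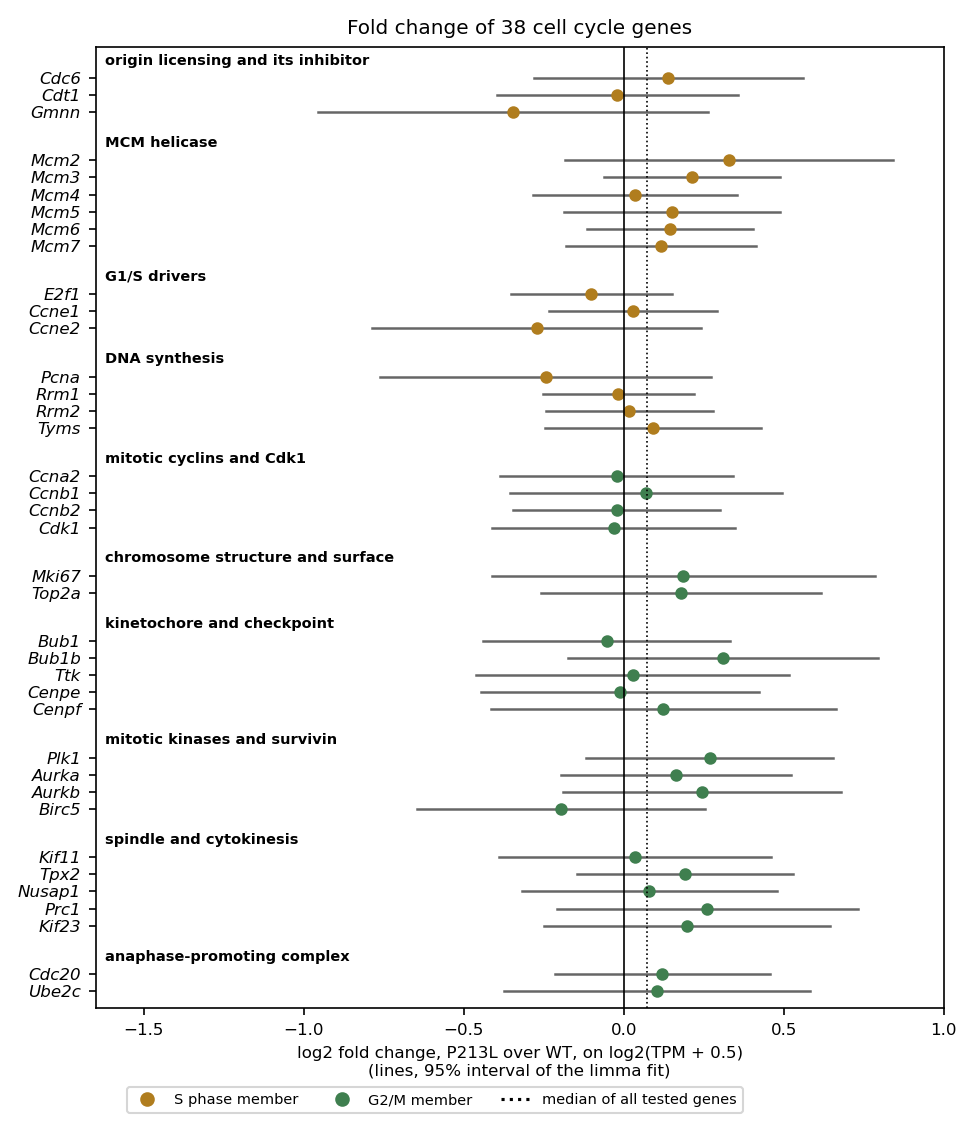
Log2 fold change of P213L over WT for each cell cycle gene, grouped by role, on log2(TPM + 0.5), with lines for the 95% intervals of the limma fit. All 38 intervals cross 0 and all lie within 1 log2 unit of it, and the dotted line marks the median of all tested genes (0.07).

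Set against each other, S phase genes had a median fold change of 0.03 (10 positive, 6 negative) and G2/M genes a median of 0.11 (16 positive, 6 negative). Without WT replicate 3 the medians were 0.03 (9 positive, 7 negative) and 0.05 (13 positive, 9 negative). Without WT replicate 2 they were 0.02 (10 positive) and 0.185 (21 positive). The S phase median turned to -0.05 with median-of-ratios scaling and to -0.07 with quantile normalization, while the G2/M median stayed positive at 0.03 and 0.01. As a score per library, the mean log2(TPM + 0.5) of the S phase genes was 3.43, 3.43 and 3.34 in P213L, against 3.47, 3.37, 3.39 and 3.30 in WT. The P213L scores lay inside the WT range. The score of the G2/M genes was 2.54, 2.65 and 2.48 in P213L, against 2.51, 2.69, 2.27 and 2.36 in WT, where WT replicates 3 and 4 lay below all P213L libraries and WT replicate 2 above them. The S phase score less the G2/M score was 0.88, 0.78 and 0.85 in P213L, against 0.95, 0.68, 1.12 and 0.94 in WT. Its means were 0.84 ± 0.05 in P213L and 0.92 ± 0.18 in WT (SD, n = 3 and 4), a difference of -0.08 that was -0.02 without WT replicate 3. The difference was -0.17 without WT replicate 2, and -0.11 without WT replicates 2 and 3 together. The scores are descriptions of the libraries and carry no p-value.

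**Figure D4:**
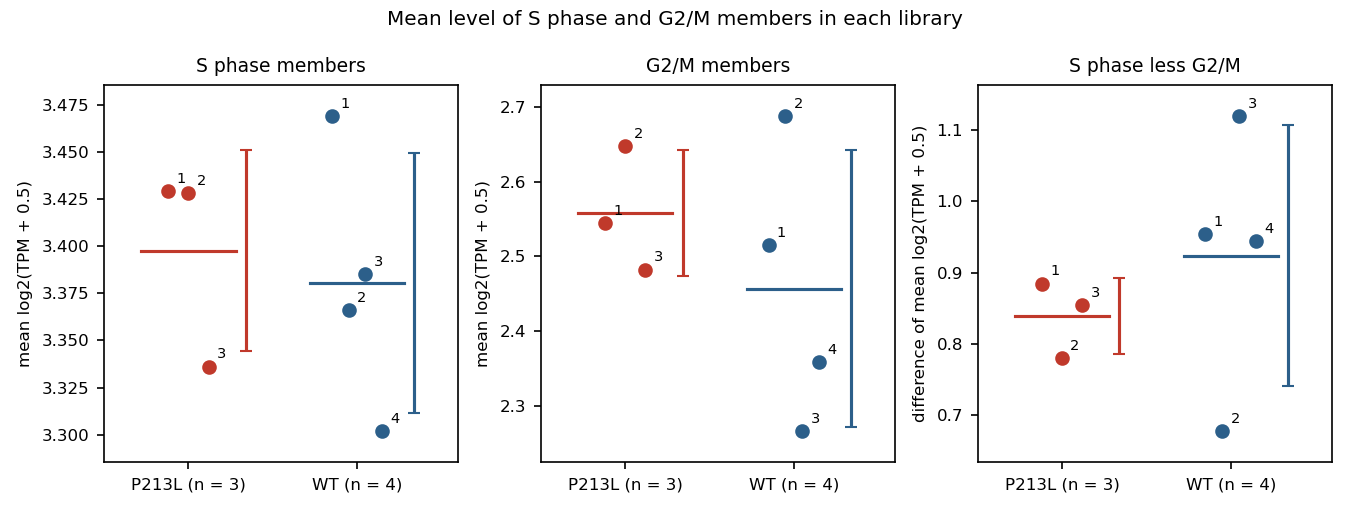
Mean log2(TPM + 0.5) of the 16 S phase genes, of the 22 G2/M genes and the difference of both, in each library (points with replicate numbers), with group means (horizontal lines) and SDs (bars) for P213L (n = 3) and WT (n = 4). The groups overlap in all 3 panels, and the WT libraries spread from 0.68 to 1.12 in the difference, against 0.78 to 0.88 in P213L.

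The libraries of a group differed from each other in ways that many members of a phase shared. The counts below were not taken over all tested genes, so whether they are particular to the members was not tested. Among the G2/M genes, P213L replicate 2 was the highest P213L library in 16 of 22, and WT replicate 2 was the highest of the WT libraries other than replicate 3 in 17 of 22. Among the S phase genes, WT replicate 1 was the highest of those WT libraries in 12 of 16. P213L replicate 3 was the lowest P213L library in 24 of the 38 members. Spread was wider in WT: the median CV was 9.31% in P213L and 18.5% in WT, and 31 of 38 members had the higher CV in WT. Without WT replicate 3 the WT median was 13.5%, and 27 of 38 still had the higher CV in WT.

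In WT replicate 3 the deviation of the members followed exon length. This is the union of all annotated exons of a gene, which can exceed the length of a single transcript. Exon lengths (GENCODE vM21) ran from 1465 bases in Gmnn to 15433 bases in Cenpf. The deviation of that library from the mean of the other 6 had a Spearman correlation of -0.618 with length over the 38 members, beside -0.374 over 16594 tested genes. It is a description across genes of 1 library, and genes are not independent replicates. The 19 shorter members deviated by a median of -0.09 on the log2 scale and the 19 longer ones by -0.44. The median deviation was -0.18 over all 38 members and -0.31 over the 16594 tested genes. Gmnn was 1.03 above the other libraries, Pcna 0.85 and Birc5 0.65, while Mki67 was at -0.90, Mcm2 at -0.80 and Cenpf at -0.65. Among the longer members Rrm1 (11012 bases) was at -0.01 and Cdk1 (4934 bases) at 0.16. WT replicate 2 and WT replicate 4 had correlations of 0.512 and 0.535, beside 0.354 and 0.262 over the 16594 tested genes. The remaining libraries lay between -0.217 and 0.383 over the members. For each of these libraries the mean of the other 6 includes WT replicate 3, whose trend enters their deviations with the opposite sign. Their correlations are therefore not separate from that of WT replicate 3. The part of exon length in the group comparison was not tested.

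**Figure D5:**
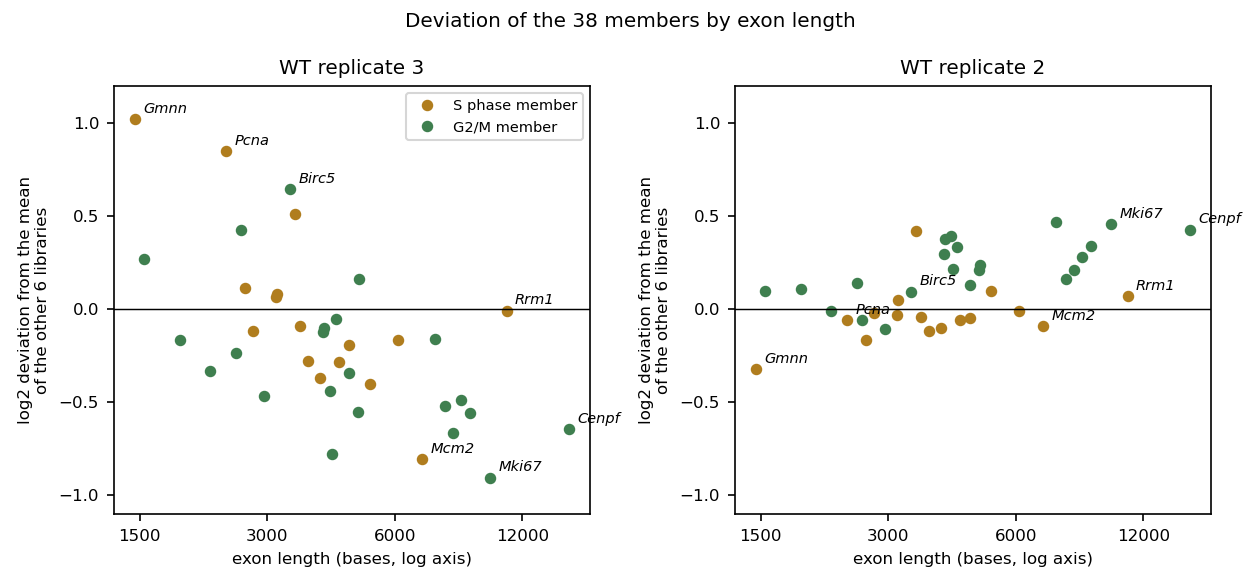
Log2 deviation of each cell cycle gene in WT replicate 3 (left) and WT replicate 2 (right) from the mean of the other 6 libraries, against exon length in bases on a log axis. In WT replicate 3 the short genes Gmnn and Pcna lie highest and the long gene Mki67 lowest. In WT replicate 2, where the mean of the other 6 includes WT replicate 3, the long genes lie above the short ones.

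Other genes of the same machinery, taken from lists of general knowledge, were described in the same way, and none of them passed the limma test after adjustment. Of 44 tested further replication genes, 27 were positive and 17 negative (median 0.05), and of 52 tested further mitosis genes 32 were positive and 20 negative (median 0.03). Both medians turned negative with median-of-ratios scaling, at -0.02 and -0.04, and with quantile normalization, at -0.06 and -0.07, and that of the mitosis genes was -0.03 without WT replicate 3. In the replication list Cdc7, the kinase that fires licensed origins, stood at 16.2, 21.1 and 18.3 TPM in P213L, against 17.6, 13.9, 12.9 and 14.8 TPM in WT. Only WT replicate 1 reached into the P213L range, and the fold change was 0.31 ± 0.15 (limma adjusted p = 0.827). In the mitosis list Hjurp, the chaperone of centromeric histone, had all P213L libraries (33.9 to 36.9 TPM) above all WT libraries (18.6 to 32.1 TPM), with a fold change of 0.34 ± 0.20 (limma adjusted p = 0.827) that was 0.16 without WT replicate 3.

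Upstream of S phase, all 7 D-type cyclins, G1 kinases and their activators had positive fold changes (median 0.23), but 5 of 7 without WT replicate 3 (median 0.07), and none reached an unadjusted p under 0.05. Ccnd3 averaged 8.77 ± 0.855 TPM in P213L and 7.07 ± 1.64 TPM in WT, and Cdk4 averaged 85.6 ± 3.79 TPM in P213L and 78.1 ± 9.22 TPM in WT. The 6 tested CDK inhibitors, the brakes of the cycle, had a median of 0.05, with 5 positive, and -0.04 with 1 positive under median-of-ratios scaling. Cdkn1a (p21) averaged 34.3 ± 1.05 TPM in P213L and 31.8 ± 2.59 TPM in WT. The 12 E2F and pocket protein genes had a median of 0.14 and 10 positive members, with a median of 0.01 and 7 positive without WT replicate 3.

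A list of 11 genes held those of the DREAM and MuvB complexes and NF-Y, and also Fzr1, an activator of the anaphase-promoting complex. Of these 11, 7 were positive and 4 negative (median 0.07). With median-of-ratios scaling (median -0.0024) and with quantile normalization (median -0.03), 5 were positive and 6 negative. Without WT replicate 3 the median was 0.03. Nfya, the DNA-binding subunit of NF-Y, which binds CCAAT boxes, stood at 30.2, 31.2 and 30.2 TPM in P213L, against 26.1, 23.6, 14.6 and 24.2 TPM in WT. All P213L libraries lay above all WT libraries, with a fold change of 0.49 ± 0.20 that reached an unadjusted p under 0.05 and did not pass after adjustment (limma adjusted p = 0.827). WT replicate 3 was the lowest library, and without it the fold change was 0.31. Its partner Nfyb was at -0.22 ± 0.13. Foxm1 and Mybl2 (B-Myb), named here after their values were seen because they are the activators of the G2/M wave, overlapped between groups. Foxm1 stood at 5.63, 5.77 and 5.54 TPM in P213L, against 5.98, 6.16, 2.28 and 4.56 TPM in WT, and Mybl2 at 2.71, 2.39 and 2.06 TPM in P213L, against 2.71, 2.05, 1.28 and 1.85 TPM in WT. The 10 tested genes of the p53 response to DNA damage were the gene of p53 itself and targets of p53. Of these 10, 6 were positive and 4 negative (median 0.02). With median-of-ratios scaling 4 were positive and 6 negative (median -0.06), and with quantile normalization 5 had each sign (median -0.02). Without WT replicate 3 the median was 0.06. Bbc3, a p53-induced cell death gene, averaged 92.0 ± 5.83 TPM in P213L and 70.3 ± 13.4 TPM in WT, with an unadjusted p under 0.05 and a limma adjusted p of 0.827.

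Markers of the cell types that the tissue could hold were read beside the members, and none passed after adjustment. An unadjusted p under 0.05, given for some of them here, was reached by 3.74% of all tested genes. The 6 oligodendrocyte precursor markers summed to 289.8 to 309.4 TPM in P213L and 200 to 319.9 TPM in WT, and the 6 astrocyte markers to 684.3 to 700.8 TPM in P213L and 593.5 to 784.0 TPM in WT. Of the precursor markers 4 were positive and 2 negative (median 0.10), but 2 and 4 without WT replicate 3 (median -0.105). Of the astrocyte markers 3 had each sign (median 0.01), but 1 was positive and 5 negative without that replicate (median -0.14). Olig2 was higher in P213L and Aldoc lower, both with no overlap between groups. All 6 markers of subventricular interneuron progenitors were positive (median 0.28), also under both scalings and without WT replicate 3, and their sum of 109.2 to 123.0 TPM in P213L lay above the 77.5 to 108.1 TPM in WT. Dlx2, Dlx5 and Sp9 of this list reached an unadjusted p under 0.05, with fold changes of 0.28, 0.38 and 0.41 and a limma adjusted p of 0.827 each. All 6 microglial markers were negative (median -0.10), also under those settings, and summed to 150.9 to 153.2 TPM in P213L and 155.2 to 186.3 TPM in WT. Siglech (-0.43, with no overlap between groups) and P2ry12 (-0.55) of this list reached an unadjusted p under 0.05. Of the 6 markers of meningeal fibroblasts 5 were positive (median 0.31), also under both scalings, and 6 without WT replicate 3 (median 0.17), and they summed to 112.4 to 160.1 TPM in P213L and 65.5 to 117.3 TPM in WT. Foxc1 of this list (0.35, with no overlap) reached an unadjusted p under 0.05, as did Slco1a4 of endothelium (-0.41) and Alas2 of erythroid cells (0.45), both with no overlap. In the endothelial list 3 markers were positive and 3 negative (median -0.02), but all 6 were negative under both scalings and 5 without WT replicate 3. In the erythroid list 2 tested markers were positive and 2 negative (median 0.0016), with 3 positive and 1 negative without WT replicate 3. The 4 tested markers of radial glia and intermediate progenitors were positive (median 0.18), but 2 of 4 with median-of-ratios scaling and 3 of 4 with quantile normalization. All 6 markers of excitatory neurons were positive (median 0.18), but 4 of 6 without WT replicate 3 (median 0.03). Of the 6 markers of choroid plexus 5 were negative (median -0.24). Without WT replicates 2 and 3 together, the 3 of them still tested were positive. The part of these cell types in the levels of the cell cycle genes was not tested.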

How the data were processed

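RNA from fresh cortex was extracted with TRIzol and made into stranded mRNA libraries with a TruSeq kit, per the labels' protocols. The submitters' processing notes name HISAT2, HTSeq and the mm10 build. Tool versions, annotation and gene lengths are not given in the sources. The authors deposited TPM per gene in 1 column a sample, per the file headers, a unit that scales every library to the same total and keeps no read count. Depth was therefore estimated: values times GENCODE vM21 exon lengths (48920 rows, 85.9%) were divided by the most frequent low value of each library, and of values up to 10 such units 64.4 to 72.4% were whole to within 0.05, and 95.1 to 96.1% were whole or half-integer. The members held 70.6 units (Cdc6) to 2900 units (Pcna) in a library. No count test was run.

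Samples were grouped by title. The 17582 genes that averaged 1 TPM or more were tested on log2(TPM + 0.5) with limma 3.58.1 (R 4.3.3), a two-sided moderated test that models a mean-variance trend. P-values were adjusted over all of them by Benjamini and Hochberg, at a threshold of 0.05. Members were also compared by an exact permutation test of the group labels (35 arrangements). Scores, lists and motifs were described without a test. The fit was checked on simulated data with known changes. The members, the gene lists and the motifs were chosen with earlier results of these data known. All 38 members, Hnrnph2 and up to 3 genes with the smallest p from each list could be named. Promoter windows came from RefSeq, 1 per symbol, matched by symbol, and Python 3.11.15, pandas 2.3.3 and matplotlib 3.10.9 were used for tables and figures.

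Alternatives were pseudocounts of 0.1 and 1, no filter and a minimum of 5 TPM, median-of-ratios and quantile scaling, removal of mitochondrial genes, no trend, a robust fit, weights per sample, a block for the replicate number, and each sample left out in turn. Leaving out WT replicates 2 and 3 together was added after seeing the data.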

Additional observations from a re-analysis of the deposited data

Results flagged for a closer look

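In each of 42 measures, the 38 members and 4 scores, the 4 WT libraries were searched for 1 library far from the others, by its gap to the nearest library as a share of the whole range. Chance alone sets apart about 1 in 20 such groups where they are independent. Here 6 of 42 were set apart, 3 through WT replicate 2 and 3 through WT replicate 3. All measures were read in the same 4 libraries, and the scores were built from the members. They are therefore not independent, and their count cannot be weighed against that rate.

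WT replicate 3 was the high library for Pcna, at 66.2 TPM, where the other WT libraries held 34 to 38.8 TPM. It was the low library for Tyms, at 2.0 TPM beside 2.23 to 2.26 TPM, and for Ttk, at 1.0 TPM beside 1.72 to 1.86 TPM. WT replicate 2 was the high library for the G2/M genes Bub1, at 2.95 TPM beside 2.17 to 2.24 TPM, Kif11, at 6.24 TPM beside 3.95 to 4.15 TPM, and Nusap1, at 6.27 TPM beside 4.51 to 4.77 TPM. In the P213L libraries Kif11 held 4.34 to 5.32 TPM and Nusap1 4.39 to 6.32 TPM. The 3 P213L libraries were too few for the same search. WT replicate 2 is also the library with 1220 TPM of Ttr, and the part of choroid plexus tissue in these values was not tested.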

How the results depend on the processing

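No member passed the adjusted threshold under any alternative except sample weights. Sample weights gave P213L replicate 3 a weight of 6.90, WT replicate 4 5.24 and WT replicate 3 0.0431. With them limma called 3981 genes after adjustment (22.6% of all tested genes) and 6969 at an unadjusted p under 0.05 (39.6%). Of the 38 members, 8 reached an unadjusted p under 0.05 and 2 passed after adjustment. The 2 were Mcm2 at 0.23 (limma adjusted p = 0.0471) and Plk1 at 0.45 (limma adjusted p = 0.0171). These calls rest mostly on 1 library per group. The endothelial marker Cldn5 reversed to 0.19 there, from -0.06. Without weights, 0 genes passed under every other alternative, and the count at an unadjusted p under 0.05, 657 in all samples, was 361 at a minimum of 5 TPM, 1836 with no filter, and 269 to 1571 with a sample left out, highest without WT replicate 1 (1571) and WT replicate 3 (1532) and lowest without P213L replicate 1 (269), 2 (391) or 3 (315). The members at an unadjusted p under 0.05 numbered 0 to 1 with a sample left out, the 1 being Plk1 without WT replicate 1. The median fold change of all members was -0.016 after quantile normalization. For S phase genes it was -0.050 after median-of-ratios scaling and -0.074 after quantile normalization, and for the companion genes -0.034 after quantile normalization. Those scalings moved the median of all genes to -0.0045 and -0.0073, from 0.07, and the calls at an unadjusted p under 0.05 to 372 higher and 344 lower (median-of-ratios) and 400 higher and 410 lower (quantile), from 415 higher and 242 lower. The cause of these shifts was not tested. With the replicate number as a block, 500 genes reached an unadjusted p under 0.05, 0 passed, and the medians were 0.06 for all members, 0.00 for S phase and 0.07 for G2/M. The labels do not say whether the numbers pair the samples, and the correlations did not settle it. Deviations of same-numbered libraries correlated at 0.128, 0.170 and -0.101 across genes. For P213L replicates 1 and 2 the same-numbered WT library gave the highest value. P213L replicate 3 correlated best with WT replicate 1 (0.121). Depth bounds the low members most, Cdc6 with at least 70.6 estimated units in a library.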
